A study of Oryza sativa with 12 samples.

Results

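The genes described here are 182 rice transcripts whose levels rose when seedlings were chilled before dusk and moved little when seedlings were chilled before dawn. RNA had been sequenced from the above-ground parts of 3-leaf seedlings of Oryza sativa ssp. indica, cultivar 93-11, grown at 28 °C under 12 h light alternating with 12 h dark. Zeitgeber time (ZT) is counted in hours from lights-on. CT12 seedlings spent ZT8 to ZT12 at 13 °C and NT12 seedlings spent the same hours at 28 °C, while CT24 and NT24 seedlings spent ZT20 to ZT24 at 13 °C and at 28 °C. The sample titles mark every library as WT (wild type), and the seedlings are given as 10 days old. Each of the 4 groups had 3 repeats of 5 pooled plants, harvested on day 11, so a library is a mean over plants and over every cell type of the shoot. The labels do not say whether lights followed the same cycle while seedlings were cold.

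Members were chosen from the table of 40424 identifiers by their measured values. Counts were divided by median-of-ratios size factors, a scaling that sets the typical gene equal in all libraries, and M was the log2 of a group's mean normalised count plus 1. A member had its largest M at 8 or above (a mean of about 255 normalised counts), a rise of at least 2 in M with chilling at ZT12 (about 4-fold), and a change of less than 0.5 in either direction with chilling at ZT24. The rule kept 182 genes, which were 17.3% of the 1051 genes that met its first pair of conditions. All 182 passed the expression filter of the statistical model. The size of the dusk rise, the small dawn change and the gap between them were thus fixed by the choice and are given as description. Members just inside the limits had a largest M of 8.04, a rise of 2.01 and an absolute dawn change of 0.498, against 7.87, 1.99 and 0.504 for the nearest genes outside.

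In plants the circadian clock limits, or gates, how strongly a stimulus acts at a given hour. In Arabidopsis, cold induction of the CBF transcription factors depends on the time of day at which cold arrives. Rice is a warm-season plant in which 13 °C is a chilling temperature without freezing, and the series title names the joint action of clock and chilling response as its subject. The deposited table gives identifiers without gene names, and 0 of them matched the reference gene table. No role can therefore be given to any member, and no pathway or cell type list was used. What the genes have in common is therefore described from their levels.

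Depth was similar across libraries, with total counts from 42966604 to 52762123. Size factors were 0.680 to 0.803 in CT12 and 1.37 to 1.42 in NT12, against 0.968 to 1.13 in CT24 and 0.994 to 1.01 in NT24. The dusk pair of groups was thus scaled furthest apart, which raises every dusk change in M relative to raw shares of counts. With total-count scaling the rule kept 74 genes, 72 of them among the 182. In whole shoots, fewer cells of a type and less RNA per cell cannot be told apart.

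A share of raw counts scales each library by its own total. By share, the 182 genes held 2.22%, 2.30% and 2.07% of the counts in the 3 CT12 libraries and 0.525%, 0.528% and 0.518% in the NT12 libraries. They held 2.06%, 2.17% and 2.19% in CT24 and 2.23%, 2.09% and 2.07% in NT24. The NT12 libraries stood alone at a low share, and by share the chilled dusk libraries overlapped both dawn groups. In summed normalised counts they did not, with 1.41e+06, 1.23e+06 and 1.28e+06 in CT12. The sums were 9.63e+05, 1.06e+06 and 1.02e+06 in CT24 and 1.08e+06, 9.31e+05 and 9.66e+05 in NT24. The sum did not rest on a single transcript: the largest member supplied 7.25% of the members' normalised counts in CT12, 4.96% in NT12, 8.74% in CT24 and 12.2% in NT24. The median member had 3135, 2664 and 2766 normalised counts in CT12 and 381, 397 and 387 in NT12, against 1716, 1539 and 1586 in CT24 and 1598, 1511 and 1623 in NT24. By the median member, chilled dusk lay above both dawn groups in every library.

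**Figure D1:**
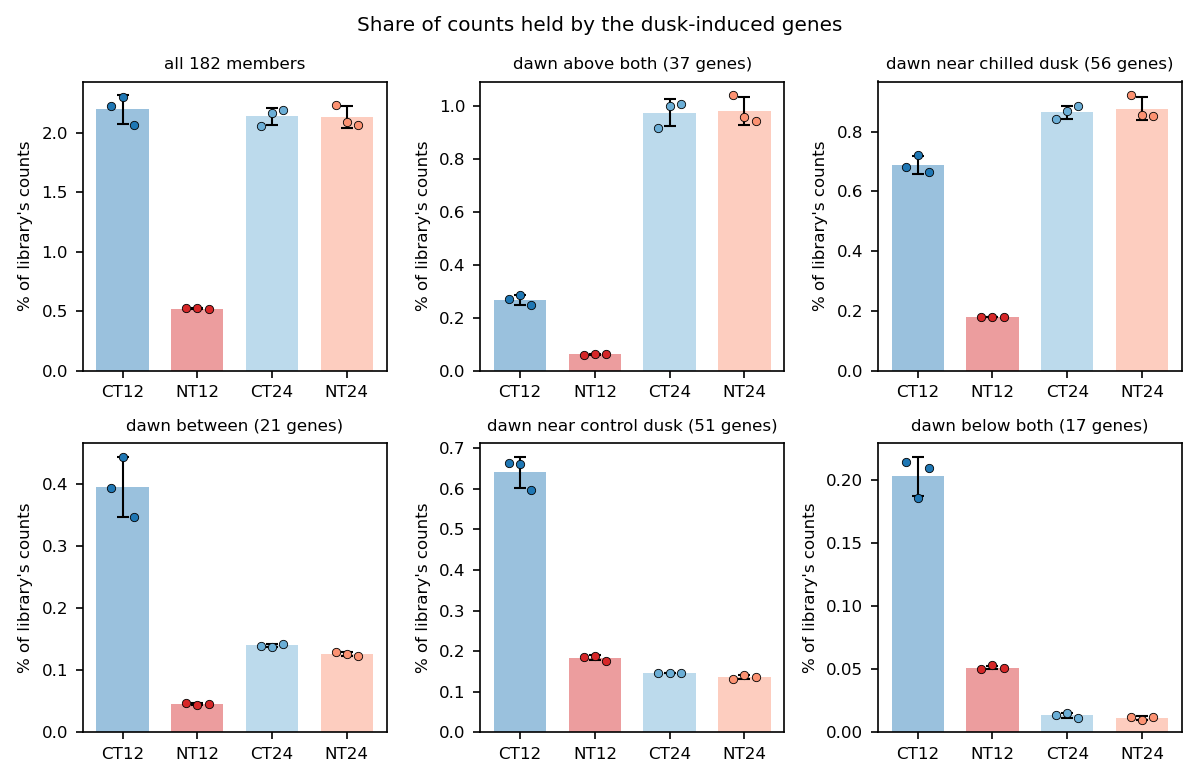
Share of each library's counts (vertical axis, percent) held by all 182 genes and by the 5 classes of dawn level, in CT12, NT12, CT24 and NT24. Points are libraries, bars are means and whiskers are SD over 3 libraries; over all genes NT12 stands at 0.518% to 0.528% and the other 3 groups between 2.06% and 2.30%.

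At dusk the rise in M ranged from 2.01 to 7.61 with a median of 2.59, and 80 genes rose by less than 2.5 while 19 rose by 4 or more. In 181 of the 182 genes all 3 CT12 libraries lay above all 3 NT12 libraries, as they did in 36.1% of the 16290 genes with a largest M of at least 8. The fitted change was called higher in CT12 for 180 genes (quasi-likelihood F test of edgeR at an adjusted p below 0.05 over 24700 genes), where 24.9% of all genes tested were called higher; the rule had chosen on this contrast. The median fitted change of the members was 2.58 in log2, and 1.83 with total-count scaling, under which the median over all genes was -0.77 in place of -0.02. OsR498G0714573400.01 and OsR498G0100254300.01 were not called, and both are named after their values were seen. OsR498G0100254300.01 had 38.3, 720 and 96.6 normalised counts in CT12 and 40.1, 91.0 and 58.8 in NT12. Its place among the members rested on CT12 replicate 2, and its groups overlapped.

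At dawn the change in M was above 0 in 113 genes and below 0 in 68, with a median of 0.08. In CT24 against NT24 the model called 16 genes higher and 8 lower, or 24 of 182, where 21.9% of all genes were called higher, 20.2% lower and 42.1% in either direction. Upper-quartile scaling gave 6 higher and 15 lower, and the share of all genes called under it was not counted. These counts follow from the choice. Without NT24 replicate 2 the number called was 15, and without CT24 replicate 2 it was 14. The difference between the responses was called lower at ZT24 than at ZT12 for 175 of the 182 genes, where 13.0% of all genes were called so, again as chosen.

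The interval of the dawn response describes how closely it was measured. The genes were chosen for a small dawn change in these same libraries, so the intervals are centred near zero by the choice. Their 95% coverage need not hold for the chosen genes, and they are given as description. The interval spanned zero for 144 genes. Of the 178 genes with more than 3 counts in each dawn group, 151 had a 95% interval of the log2 change that lay wholly within 1 of zero, which leaves room for changes smaller than 2-fold. For 32 genes the interval lay within 0.5 of zero. For 27 genes it reached beyond 1, so a 2-fold response before dawn was not excluded by these libraries. The median half-width was 0.43 on the log2 scale, and it ranged from 0.19 to 2.30.

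**Figure D2:**
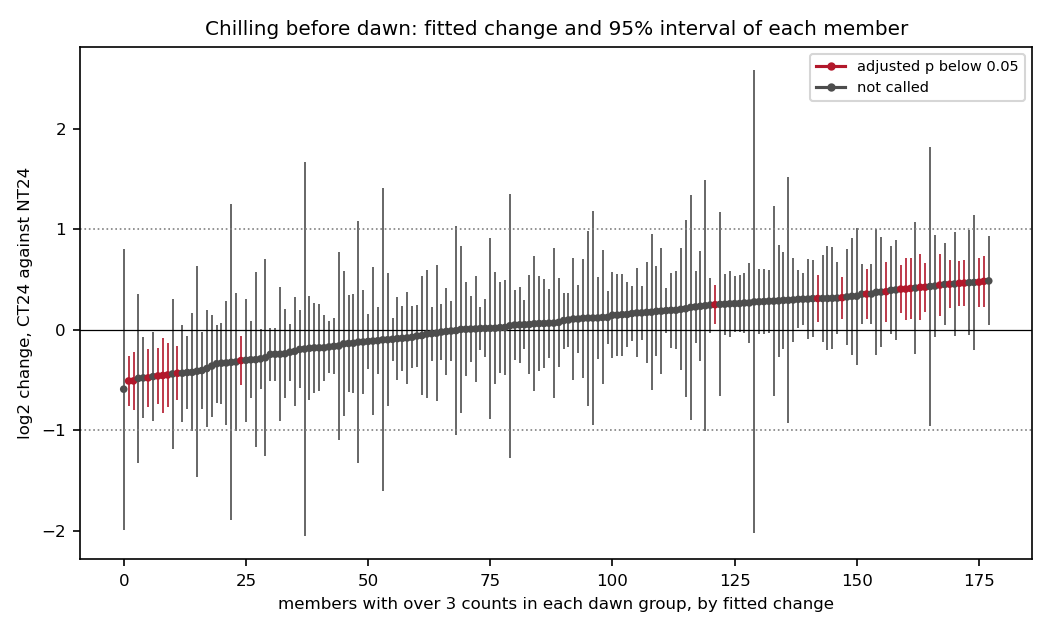
Fitted log2 change in CT24 against NT24 (vertical axis) for the 178 members with over 3 counts in each dawn group, ordered by size, with 95% intervals from the model. Red marks an adjusted p below 0.05 and dotted lines mark a 2-fold change. Between the dotted lines stay 151 intervals, and all are centred near zero by the choice of genes.

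To read the response in libraries that did not take part in the choice, the rule was applied to 2 replicates of each group and the chosen genes were read in the third. It chose 169, 177 and 194 genes when replicate 1, 2 or 3 was left out, of which 131, 144 and 150 were among the 182. In the left-out libraries the median difference CT12 minus NT12 was 2.80, 2.41 and 2.46 in log2, against 2.58, 2.69 and 2.67 in the libraries that chose them. It was above 0 in 165 of 169, 175 of 177 and 192 of 194 genes, and at least 2 in 138, 116 and 147. The median dusk rise was thus larger than in the choosing libraries with replicate 1 left out, and smaller with replicate 2 or 3 left out.

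The small dawn change carried over less closely. The median difference CT24 minus NT24 in the left-out libraries was -0.11, 0.19 and 0.25, and it stayed within 0.5 of zero in 99 of 169, 124 of 177 and 111 of 194 genes. Its median absolute size was 0.36, 0.32 and 0.40, against 0.27, 0.21 and 0.22 in the choosing libraries. Within 1 of zero there were 146, 168 and 163 genes. Over the 16290 genes with a largest M of at least 8, CT24 minus NT24 in M had a lower quartile of -0.43 and an upper quartile of 0.62. Those are means of 3 libraries, and the share of all genes within these limits in the left-out libraries was not counted. A dusk difference of at least 2 together with a dawn difference within 0.5 of zero was found in 83 of 169, 80 of 177 and 88 of 194 genes. The dusk difference exceeded the dawn difference in 162, 174 and 183 genes. Each such reading has 1 library a group, so no test was made.

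**Figure D3:**
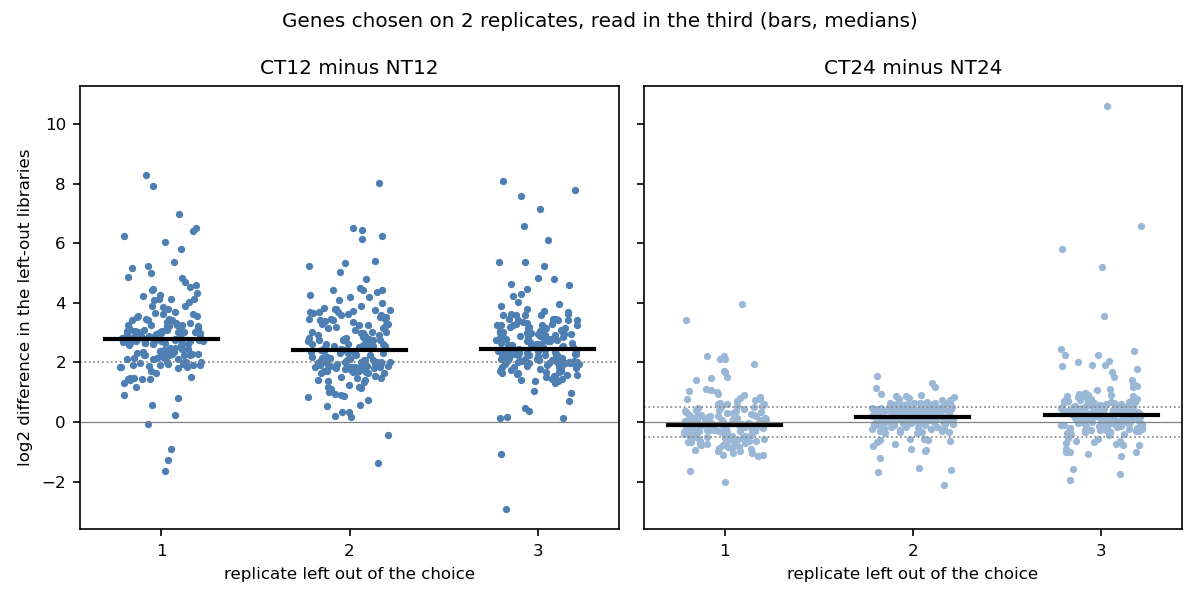
Log2 differences in the left-out libraries (vertical axis) for genes chosen on the other 2 replicates, by the replicate left out (horizontal axis); points are genes and bars are medians. Medians are 2.80, 2.41 and 2.46 for CT12 minus NT12 and -0.11, 0.19 and 0.25 for CT24 minus NT24; dotted lines are the limits of the rule.

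The members differed most from each other in where their dawn level stood, which the rule left free. The dawn level was the mean of M in NT24 and CT24, which are close by choice, and it was placed against the chilled and control dusk levels with a margin of 1. In 56 genes it lay near the chilled dusk level and in 51 near the control dusk level. It lay above both dusk levels in 37 genes, between them in 21 and below both in 17. The classes were cut from these same values, so the calls given below for a class in NT24 against NT12 and in CT24 against CT12 follow largely from its definition and describe it. The highest group mean was found in CT12 for 120 genes, in CT24 for 38 and in NT24 for 24. By group means alone, 62 of the 182 genes were thus highest at dawn, at one temperature or the other, although their rise on chilling was seen at dusk. Spread between libraries was not weighed in this count, and the share over all genes was not counted. Of the 56 genes near the chilled dusk level, 31 were highest in CT12. In CT24 against CT12, 9 of the 56 were called higher (16.1%), against 20.3% of all genes. In 102 genes all 3 CT12 libraries lay above the other 9, as in 15.3% of the 16290 genes with a largest M of at least 8; the members were chosen for high CT12 levels.

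At 28 °C, M was higher in NT24 than in NT12 for 141 genes, with a median difference of 1.62 and a range from -5.46 to 11.21. The model called 122 of the 182 genes higher and 24 lower in NT24, where 23.2% of all genes were called higher and 20.9% lower. Under total-count scaling the counts were 110 and 32, and the median log2 difference over all genes was -0.39 in place of 0.04. The shares of all genes called under that scaling were not counted. This contrast shares its NT12 libraries with the dusk contrast that chose the genes, and a gene low in NT12 is favoured by both, so the excess of higher calls is given as a value and not as support.

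Under chilling, the model called 104 of the 182 genes lower and 46 higher in CT24 than in CT12, where 21.8% of all genes were called lower and 20.3% higher. Under total-count scaling these counts were 92 and 56, and the median log2 difference over all genes was 0.34 in place of 0.03. The shares of all genes called under that scaling were not counted. The median difference in M was -0.96, with a range from -8.78 to 6.78. This contrast shares the CT12 and CT24 libraries with the rule.

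**Figure D4:**
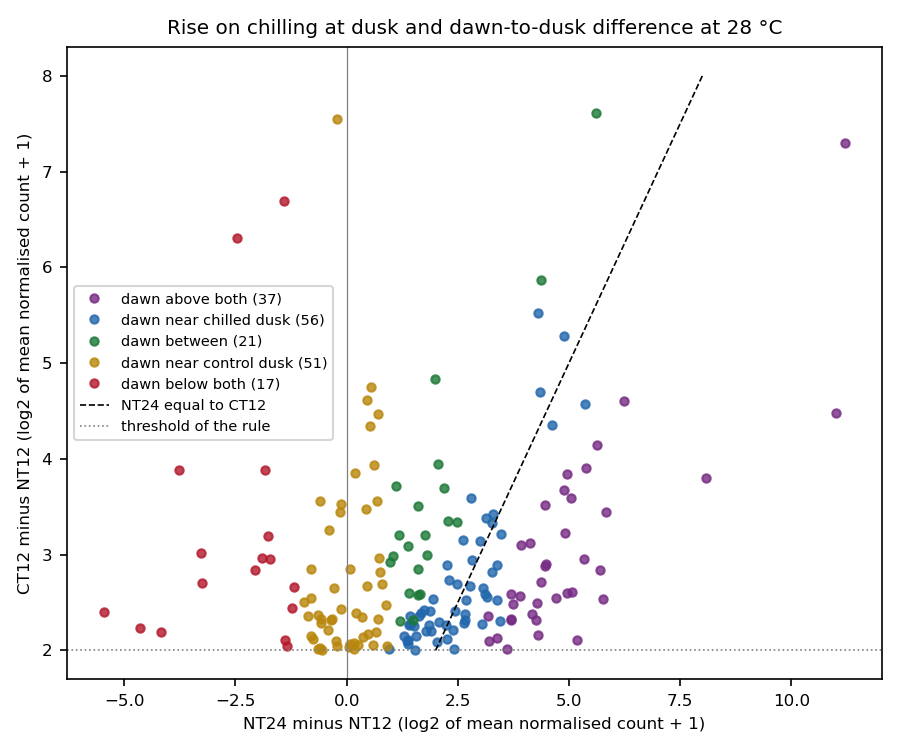
Each point is 1 of the 182 genes, placed by NT24 minus NT12 (horizontal axis) and CT12 minus NT12 (vertical axis), both in log2 of the mean normalised count plus 1, and coloured by class of dawn level. On the dashed line NT24 equals CT12; the axes share the NT12 libraries, so no correlation is given. The horizontal axis runs from -5.46 to 11.21.

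In the 56 genes with a dawn level near the chilled dusk level, M in CT12 lay within 1 of the dawn level by the definition of the class. These genes held 0.681%, 0.723% and 0.664% of the counts in CT12 and 0.179%, 0.180% and 0.181% in NT12, against 0.841%, 0.869% and 0.884% in CT24 and 0.921%, 0.856% and 0.853% in NT24. By these shares NT12 was far lowest, and the CT12 libraries also lay below all CT24 and NT24 libraries. As the class requires, NT24 was called higher than NT12 in 55 of the 56 genes, against 23.2% of all genes. CT24 against CT12 gave 9 genes higher (16.1%), 15 lower (26.8%) and 32 not called, with a median log2 difference of -0.14. Over all genes tested, 20.3% were called higher and 21.8% lower.

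OsR498G0101844100.01 and OsR498G0204653400.01 are the members averaging at least 5 CPM (counts scaled to library size) whose M varied least over CT12, CT24 and NT24, and they were chosen for this after the values were seen. OsR498G0101844100.01 had 10364, 9298 and 8336 normalised counts in CT12 and 1339, 1549 and 1495 in NT12. It had 8680, 10967 and 9985 in CT24 and 11113, 9385 and 9279 in NT24. The 3 high groups overlapped and NT12 lay below them all. Its log2 difference CT24 against CT12 was 0.09, with a 95% interval from -0.19 to 0.36.

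OsR498G0204653400.01 had 58756, 37368 and 61400 normalised counts in CT12 and 6544, 7466 and 6487 in NT12, against 51108, 53128 and 41156 in CT24 and 56539, 42831 and 46329 in NT24. Again NT12 alone was low. Its log2 difference CT24 against CT12 was -0.11, with a 95% interval from -0.54 to 0.32.

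In the 51 genes with a dawn level near the control dusk level, the chilled dusk seedlings stood highest. These genes held 0.664%, 0.660% and 0.595% of the counts in CT12 and 0.186%, 0.188% and 0.177% in NT12, against 0.147%, 0.146% and 0.146% in CT24 and 0.131%, 0.140% and 0.136% in NT24. As the class requires, all 51 were called lower in CT24 than in CT12, against 21.8% of all genes. In NT24 against NT12, 9 were called higher (17.6%), 9 lower (17.6%) and 33 neither way. Over all genes tested, 23.2% were called higher and 20.9% lower. All 3 members whose identifiers are not of the OsR498G type, Novel01194, Novel01519 and Novel01610, fell in this class; they are named after their values were seen.

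The flattest members outside chilled dusk were OsR498G0203043100.01 and OsR498G0815140000.01, in which M varied by 0.25 and 0.28 over NT12, NT24 and CT24. OsR498G0203043100.01 had 4772, 3992 and 4878 normalised counts in CT12 and 1072, 942 and 1166 in NT12. It had 920, 936 and 1029 in CT24 and 965, 953 and 764 in NT24. Only the CT12 libraries were high, with a log2 change of 2.09 (SE 0.13) in CT12 against NT12 and of 0.09 (SE 0.13) in CT24 against NT24.

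OsR498G0815140000.01 had 10122, 9120 and 9879 normalised counts in CT12 and 2008, 2728 and 2222 in NT12, against 2053, 1990 and 2037 in CT24 and 2890, 2345 and 2128 in NT24. All CT24 libraries lay below all NT24 libraries here, at a fitted difference of -0.29 in log2 (SE 0.14), which was not called. The fitted change in CT12 against NT12 was 2.06 (SE 0.14).

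Across the classes, 4 members had at most 3 counts over the libraries of a dawn group and are named after their values were seen. OsR498G1220962000.01, with a dawn level near control dusk, had 219, 654 and 218 normalised counts in CT12, against 4 raw counts over the NT12 libraries, 2 over CT24 and 2 over NT24. The other 3 had a dawn level below both dusk levels. OsR498G0305767200.01 had 619, 397 and 299 normalised counts in CT12 and 7.30, 4.23 and 2.15 in NT12, and it had 0 counts in all 6 dawn libraries. OsR498G0203329000.01 had 1 count over CT24 and 0 over NT24, against 592 over CT12 and 7 over NT12. OsR498G0511097400.01 had 1 count over each dawn group, against 669 over CT12 and 243 over NT12, so it was present at dusk at both temperatures. At these counts a fall or a small rise on chilling before dawn was not detectable at this depth. A rise to the counts seen in CT12 would have been. None of the 4 had more than 2 counts over CT24, and the rule had chosen them for a small dawn change.

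In the 37 genes with a dawn level above both dusk levels, chilled dusk was an intermediate state. They held 0.269%, 0.286% and 0.25% of the counts in CT12 and 0.0611%, 0.0621% and 0.0641% in NT12, against 0.917%, 1.00% and 1.01% in CT24 and 1.04%, 0.959% and 0.942% in NT24. By the definition of the class, all 37 were called higher in NT24 than in NT12 (23.2% of all genes), with a median log2 difference of 4.55. All 37 were also called higher in CT24 than in CT12 (20.3% of all genes), with a median of 1.79.

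OsR498G0305498600.01 had the largest fitted rise at dusk among the members averaging at least 5 CPM, and the largest difference between NT24 and NT12 of all members. It had 542, 477 and 462 normalised counts in CT12 and 0.730, 4.23 and 1.43 in NT12, which rested on 9 raw counts over the NT12 libraries. It had 4903, 6038 and 6002 in CT24 and 8178, 7063 and 6955 in NT24. The 4 groups did not overlap, with NT12 lowest, then CT12, CT24 and NT24. The log2 change was 7.76 (SE 0.40) in CT12 against NT12 and ranged from 7.34 to 8.63 with 1 library left out. In NT24 against NT12 it was 11.69 (SE 0.40).

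OsR498G0205042300.01 was next by the difference between NT24 and NT12, at 11.60 in log2 (SE 0.63), and rested on 7 raw counts in NT12. It had 70.6, 29.9 and 75.6 normalised counts in CT12 and 0.730, 1.41 and 2.87 in NT12. It had 6179, 6760 and 6698 in CT24 and 6924, 4638 and 4969 in NT24. Chilled dusk was far above control dusk and yet far below dawn, and CT24 exceeded CT12 by 6.82 in log2 (SE 0.28), more than in any other member.

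OsR498G0202929300.01 had 54.4, 38.6 and 25.2 normalised counts in CT12 and 0, 1.41 and 4.30 in NT12, against 552, 805 and 580 in CT24 and 1081, 713 and 560 in NT24. CT12 lay between NT12 and the dawn groups, which overlapped each other. CT24 exceeded CT12 by 4.04 in log2 (SE 0.43). Its NT12 level rested on 8 raw counts, so the fitted dusk rise of 4.27 (SE 0.71) ranged from 3.70 to 5.52 with 1 library left out.

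In the 21 genes with a dawn level between the dusk levels, the shares were 0.394%, 0.444% and 0.347% in CT12 and 0.0479%, 0.0438% and 0.0457% in NT12, against 0.140%, 0.137% and 0.143% in CT24 and 0.130%, 0.126% and 0.123% in NT24. By definition again, all 21 were called higher in NT24 than in NT12 (23.2% of all genes) and all 21 lower in CT24 than in CT12 (21.8% of all genes). OsR498G0204524700.01, in this class, had the largest rise in M of any member. It had 27372, 21148 and 18162 normalised counts in CT12 and 129, 79.7 and 128 in NT12. It had 6003, 6191 and 8728 in CT24 and 6799, 4436 and 5443 in NT24. The dawn groups overlapped each other and stood apart from both dusk groups, and the fitted change in CT12 against NT12 was 7.62 in log2 (SE 0.24).

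In the 17 genes with a dawn level below both dusk levels, transcripts were lower at dawn than in either dusk group, as the class requires. They held 0.214%, 0.186% and 0.210% of the counts in CT12 and 0.0504%, 0.0532% and 0.0509% in NT12, against 0.0137%, 0.0158% and 0.0117% in CT24 and 0.0123%, 0.0100% and 0.0123% in NT24. NT24 was called lower than NT12 in 15 of the 17 (20.9% of all genes), and all 17 were called lower in CT24 than in CT12 (21.8% of all genes), with a median log2 difference of -5.77.

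OsR498G0306613200.01 had the largest fall in CT24 against CT12 among the members averaging at least 5 CPM, at -7.58 in log2 (SE 0.21). It had 57673, 37481 and 60557 normalised counts in CT12 and 3019, 3824 and 3734 in NT12. It had 321, 272 and 214 in CT24 and 240, 304 and 223 in NT24. The dawn groups overlapped and lay below both dusk groups, and NT24 against NT12 gave -3.77 (SE 0.21).

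OsR498G0307107100.01 had 1495, 1256 and 1707 normalised counts in CT12 and 281, 308 and 361 in NT12, against 13.8, 9.30 and 12.4 in CT24 and 11.8, 9.05 and 14.1 in NT24. NT24 against NT12 gave the lowest value of the members averaging at least 5 CPM, -4.73 in log2 (SE 0.22). Its dawn change was 0.01 (SE 0.25), at 38 raw counts over CT24 and 35 over NT24.

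**Figure D5:**
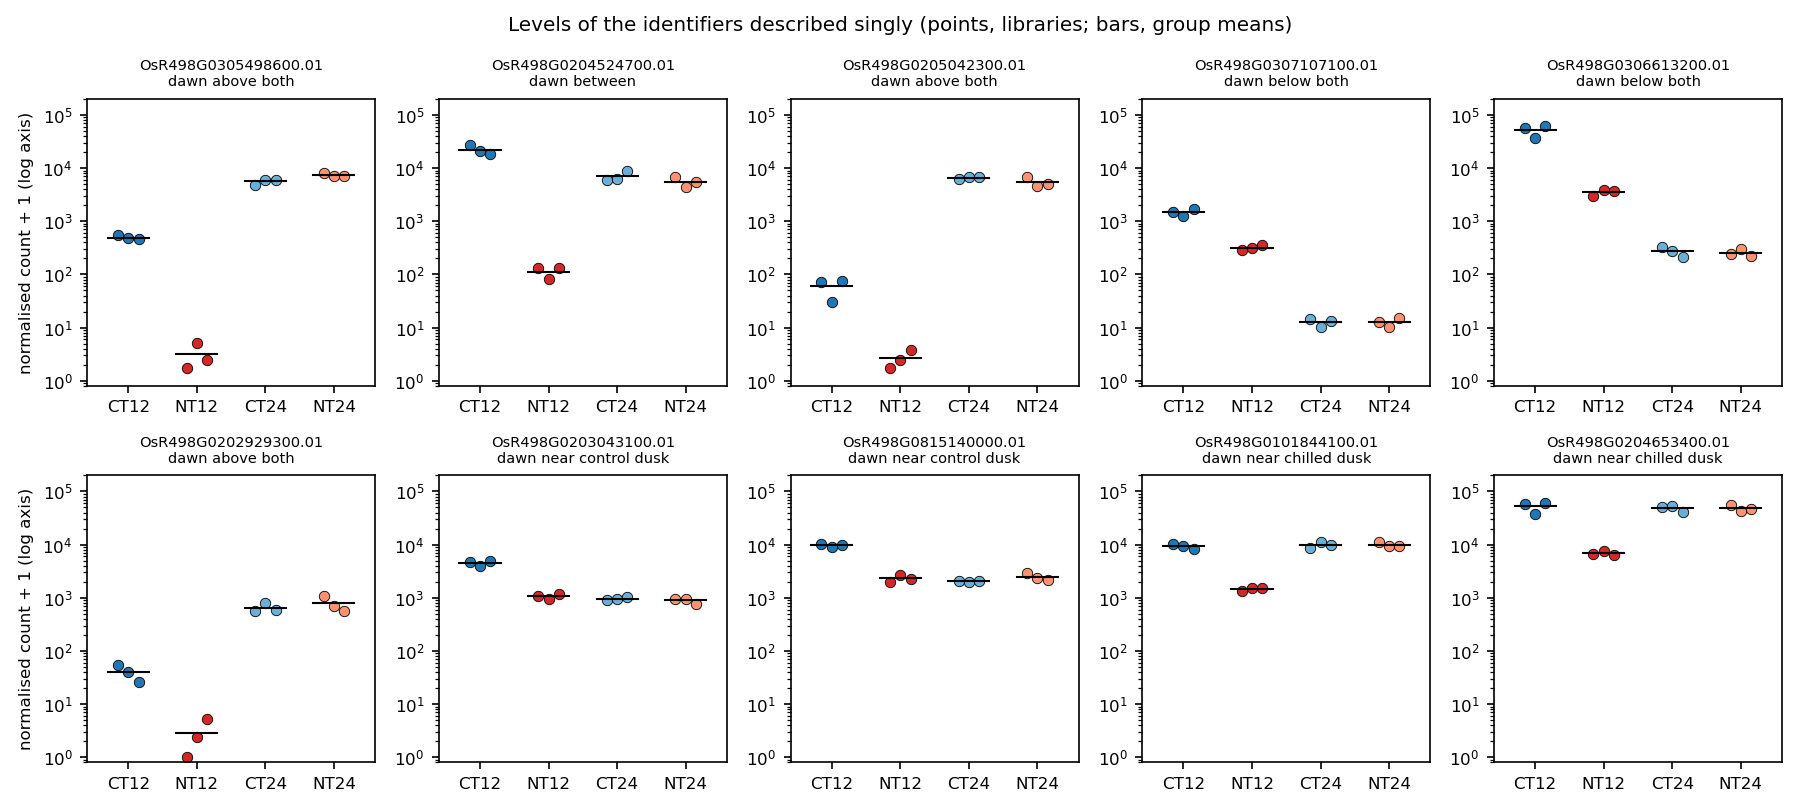
Normalised counts plus 1 (vertical log axis) of the 10 members described singly, in CT12, NT12, CT24 and NT24; points are libraries and bars are means of 3. For OsR498G0101844100.01 the CT12 libraries, at 8336 to 10364, overlap both dawn groups, while for OsR498G0203043100.01 the CT12 libraries, at 3992 to 4878, stand above all other groups.

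The identifiers of the members gave a further description. Of the OsR498G type with 00 as the first digits, 4 were members, although this type supplied 9 of the 16290 genes with a largest M of at least 8 (2.20% of members against 0.0552%). These were OsR498G0022237100.01, OsR498G0022238200.01, OsR498G0022239500.01 and OsR498G0022240400.01, named after their values were seen. OsR498G0022237100.01 had 14231, 11954 and 5287 normalised counts in CT12 and 214, 554 and 657 in NT12, against 648, 987 and 1062 in CT24 and 789, 812 and 706 in NT24. OsR498G0022238200.01 had 7263, 4767 and 2261 in CT12 and 78.8, 220 and 231 in NT12, so that both were highest in CT12 replicate 1.

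OsR498G0022239500.01 had 8164, 14581 and 5280 normalised counts in CT12, and OsR498G0022240400.01 had 2941, 4375 and 2415, both highest in replicate 2. Their NT12 levels were 1246, 1181 and 1259 for OsR498G0022239500.01 and 411, 455 and 360 for OsR498G0022240400.01. The CT12 replicates of these 4 genes were thus spread widely. All lay above the NT12 replicates, as in 181 of the 182 members, which were chosen on this contrast. Over the 16290 genes with a largest M of at least 8 this held in 36.1%. Reads shared among near-identical genes could not be assigned with certainty, and the part of such sharing here was not tested. For the other digits, 01 to 12, the share of members lay between 3.85% and 14.3%, where the same types supplied from 4.67% to 14.1% of genes with a largest M of at least 8.

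Members within 3 steps of each other in numeric order formed 3 pairs, named after the values were seen. OsR498G0305102700.01 and OsR498G0305103000.01, next to each other, rose by 2.60 and 3.84 in M at dusk, and in both NT24 exceeded NT12 by 4.96. OsR498G1018920200.01 and OsR498G1018920300.01, also next to each other, rose by 2.25 and 2.20, and NT24 exceeded NT12 by 1.51 and 1.78. OsR498G0510979400.01 and OsR498G0510979800.01, 2 steps apart, rose by 2.89 and 3.85, while NT24 exceeded NT12 by 2.25 and 0.19, which put them in different classes. Whether the members of a pair share reads was not tested.

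Spread between replicates was measured as the SD of log2 normalised counts within a group. The median over members was 0.27 in CT12 and 0.20 in NT12, against 0.18 in CT24 and 0.19 in NT24. Over the 16290 genes with a largest M of at least 8 it was 0.25 in CT12 and 0.16 in NT12, against 0.17 in CT24 and 0.16 in NT24. The widest spread of a member in CT12 was 2.15.

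Exchanging the times in the rule gave 68 genes that rose on chilling before dawn and moved little before dusk. In NT24 against NT12, where 23.2% of all genes were called higher and 20.9% lower, the model called 1 of these higher and 52 lower (76.5%), while it called 122 of the 182 dusk-induced genes higher (67.0%) and 24 lower (13.2%). Of 324 genes that rose by at least 2 in M at both times, 60 were called higher (18.5%) and 147 lower (45.4%). Each list was chosen on the control libraries that this contrast compares, so the values stand side by side without a test.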

How the data were processed

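RNA sequencing of 12 libraries from rice shoots was analysed, 3 in each of CT12, NT12, CT24 and NT24. The deposited values are raw counts by gene, whole numbers with no scaling by the authors. The submitters' processing notes name HISAT2 2.0.4. The sources used here do not give the counter, the build, the annotation or whether strand was used. The table held 40424 identifiers, of which 10485 had no count, and every line had an identifier. Members were chosen by the rule stated in the report. The members, classes and lists were chosen with earlier results of these data known, and the rule for single genes took at most 2 in each direction of a comparison, averaging at least 5 CPM, with groups not overlapping, plus the 2 flattest outside CT12; others are marked as named after their values were seen.

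Counts were fitted in R 4.3.3 with edgeR 4.0.16: expression filter (minimum count 10, minimum total 15; 24700 genes kept), trimmed mean of M values (TMM) scaling, and quasi-likelihood fits of 4 group means over all 12 libraries (8 residual degrees of freedom). Benjamini-Hochberg adjustment ran over all genes tested within a comparison. Fold changes and SE come from this fit, SE from its weights and moderated dispersion, and 95% intervals from SE. They are unreliable where a group has few counts, and could not be computed for some genes at 0. Alternatives used DESeq2 1.42.0 and limma 3.58.1 (voom), among other settings. Libraries of a group differed by a chi-square of 25.5 to 139 per gene, so none was a duplicate. The selection rule was run on simulated counts with planted rises above its limit and sampling noise only, without biological spread between replicates. The model was run on simulated counts with the fitted spread. These runs checked the code and do not speak to members near the limits. The repeats are named biological in the labels' protocols. No pathway or marker list was used, as the identifiers carry no gene names.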

Additional observations from a re-analysis of the deposited data

Results flagged for a closer look

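The chilling response differed between times of day in 175 of the 182 genes, all with a lower response at ZT24 than at ZT12 (edgeR, test of the interaction), where 13.0% of all genes tested were called in that direction; the rule had chosen the genes for this difference, so it is no independent result. In log2, the response at ZT24 minus that at ZT12 was -8.16 for OsR498G0305498600.01, -7.31 for OsR498G0204524700.01, -4.79 for OsR498G0205042300.01 and -4.57 for OsR498G0202929300.01. It was -3.81 for OsR498G0306613200.01, -2.95 for OsR498G0204653400.01 and -2.69 for OsR498G0101844100.01. For OsR498G0815140000.01, OsR498G0307107100.01 and OsR498G0203043100.01 it was -2.35, -2.21 and -2.00.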

How the results depend on the processing

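Among counts and medians, 175 alternative values stayed within the margin set for them (1.5 times for counts, 1 SD over replicates for medians) and 14 did not. For the 10 genes described singly, 342 alternative values covered CT12 against NT12 and the time contrasts on which a gene was picked as highest or lowest. All of these kept their direction and their call. The small differences given for the flattest members, in CT24 against NT24 or CT24 against CT12, were not among them. The number of members moved to 74 with total-count scaling, 93 and 350 with the dawn limit at 0.25 and 1, and 361 and 57 with the dusk limit at 1.5 and 3; genes near the chilled dusk level at dawn then numbered 19, 28, 107, 108 and 12. Leaving out 1 library gave 174 to 193 members, of which 159 to 178 were among the 182, and 52 to 58 genes near the chilled dusk level. Members called in CT24 against NT24 numbered 14 to 30 with 1 library left out. The median difference in left-out libraries was 2.41 to 2.80 at ZT12 and -0.11 to 0.25 at ZT24. Why these values moved was not tested, apart from the limits, which admit more or fewer genes by construction. With 1 library left out, members called higher in CT12 numbered 180 to 181, with a lower response at ZT24 170 to 174, higher in NT24 than NT12 117 to 126 and lower 20 to 26, and lower in CT24 than CT12 100 to 106 and higher 41 to 49. Deviations from group means correlated from -0.44 to 0.29 over 18 pairs of libraries with the same replicate number. Over 36 pairs with different numbers they correlated from -0.43 to 0.44. With 3 libraries a group, these values cannot tell whether libraries of the same number shared a batch. With a replicate block in the model, edgeR called 119 members higher and 22 lower in NT24 than in NT12, 103 lower and 44 higher in CT24 than in CT12, 180 higher in CT12 than in NT12, 20 in CT24 against NT24 and 171 with a lower response at ZT24. For the 4 members with at most 3 counts in a dawn group, depth hides a fall or a small rise before dawn.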
